A study of Rattus norvegicus with 6 samples.

Results

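The guide arms of the miR-17-92 and miR-106b-25 clusters were followed in fibroblasts of rat sciatic nerve and in the extracellular vesicles these cells release. A guide arm is the strand of a miRNA hairpin that is usually kept in the silencing complex, and the passenger arm is the other strand. The members were chosen by name, and all 9 had a row of their own among the 1071 rows of the deposited count table, of which 552 are known rat miRNAs. They are rno-miR-17-5p, rno-miR-18a-5p, rno-miR-19a-3p, rno-miR-20a-5p, rno-miR-19b-3p and rno-miR-92a-3p of miR-17-92, in their order along the primary transcript, and rno-miR-106b-5p, rno-miR-93-5p and rno-miR-25-3p of miR-106b-25; the prefix for rat is left out below. Small RNA was sequenced from 3 vesicle samples (EV, called exosomal in the labels) and 3 samples of RNA inside the cells (Intracellular), which served as controls. All 6 samples came from wild type, untreated, nerve-derived fibroblasts and carry the same batch number in the labels. The sources used here do not give how the cells were cultured, how vesicles were collected or whether replicates were separate cultures. The p-values therefore cover only the scatter among these 6 samples, part or all of which may be technical.

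As background, each cluster is cut from a single primary transcript. miR-17-92 lies in the noncoding gene Mir17hg, which MYC and E2F factors switch on, and miR-106b-25 lies in an intron of Mcm7, a gene of the DNA replication helicase. Their miRNAs act on regulators of the cell cycle and of the matrix: the miR-17 seed family lowers the cell cycle inhibitor Cdkn1a and the activator E2f1, miR-18a lowers the matricellular protein Ctgf, and miR-25 lowers the inhibitor Cdkn1c. The clusters are best known from proliferating progenitors, lymphocytes and tumours, and dividing fibroblasts in culture also express them.

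The mature sequences, taken from RefSeq (GRCr8 tables) and identical to those in the count table for all 9, are shown because the seed, bases 2 to 8 in capitals, sorts members of both clusters into shared families. The miR-17 family holds 4 members.
miR-17-5p: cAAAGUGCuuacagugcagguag
miR-20a-5p: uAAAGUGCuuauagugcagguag
miR-93-5p: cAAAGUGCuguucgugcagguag
miR-106b-5p: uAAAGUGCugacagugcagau
The miR-18 family has 1 member here, and the miR-19 family has 2.
miR-18a-5p: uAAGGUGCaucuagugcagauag
miR-19a-3p: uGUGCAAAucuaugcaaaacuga
miR-19b-3p: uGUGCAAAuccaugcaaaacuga
The miR-92 family joins the last member of each cluster.
miR-92a-3p: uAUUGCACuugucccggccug
miR-25-3p: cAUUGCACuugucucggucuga

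Within a family the members are close to identical. With positions counted from 1 at the 5′ end, miR-19a-3p and miR-19b-3p differ by U11C alone, and miR-17-5p and miR-20a-5p differ by C1U and C12U. miR-92a-3p and miR-25-3p differ by U1C, C14U and C18U over the 21 bases they share. How reads that match several members were divided is not stated, so the split between such members is less certain than their sum. In RefSeq miR-17-5p, miR-19b-3p and miR-92a-3p each also arise from a second hairpin, in the paralogous miR-106a-363 cluster, and their counts cannot be assigned to one locus. Mature lengths run from 21 to 23 bases and the counts carry no length term, so levels are compared between members as counts per 1000000 counts of the library (CPM), with the reservation that adapter ligation favours some sequences.

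The clusters were minor parts of every library. The 9 members together took 907 counts in the EV libraries, of 279118 in all, and 36640 in the Intracellular libraries, of 14011424. One count stood for 9.47 to 12.3 CPM in EV libraries and for 0.113 to 0.544 CPM in Intracellular ones, so values of the rarer members in EV rest on single reads. TMM, a scaling that assumes most miRNAs equal between libraries, set Intracellular replicate 1 apart: its factor was 0.557, and the next lowest was 0.935 in Intracellular replicate 3. Intracellular replicate 1 also held the lowest CPM of its group for all 9 members, although for miR-92a-3p it was level with Intracellular replicate 3 (6.53 and 6.55 CPM). Scaling by total counts in place of TMM moved the median log2 fold change over every tested miRNA from -0.065 to 0.55, a shift of 0.61, and both scalings are given for the members.

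miR-25-3p, which lowers the cell cycle inhibitor Cdkn1c, led the 9 members in every library. In EV libraries it was followed by miR-20a-5p (663 ± 131 CPM), miR-93-5p (404 ± 66.2 CPM), miR-17-5p (262 ± 36.8 CPM) and miR-19b-3p (154 ± 38.6 CPM; SD, n = 3), and none of these overlapped with its neighbour in the order. Below them miR-92a-3p (64.0 ± 40.6 CPM) overlapped with miR-106b-5p (48.8 ± 21.3 CPM), and miR-18a-5p (10.4 ± 10.9 CPM) with miR-19a-3p (7.26 ± 6.45 CPM). In Intracellular libraries miR-20a-5p (352 ± 129 CPM) again came second and exceeded miR-17-5p (265 ± 110 CPM) within each of the 3 libraries, although their ranges overlapped. miR-17-5p and miR-93-5p (236 ± 78.0 CPM) overlapped and changed order between libraries, as did miR-19b-3p (39.8 ± 10.96 CPM) and miR-106b-5p (38.5 ± 20.2 CPM). miR-92a-3p stood close to the bottom inside the cells, at 7.07 ± 0.932 CPM, and overlapped with both miR-18a-5p (16.8 ± 10.7 CPM) and miR-19a-3p (5.42 ± 3.58 CPM). Both clusters spanned a wide range of levels. In EV libraries miR-106b-25 ran from 48.8 CPM (miR-106b-5p) to 1629 CPM (miR-25-3p) and miR-17-92 from 7.26 to 663 CPM.

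**Figure D1:**
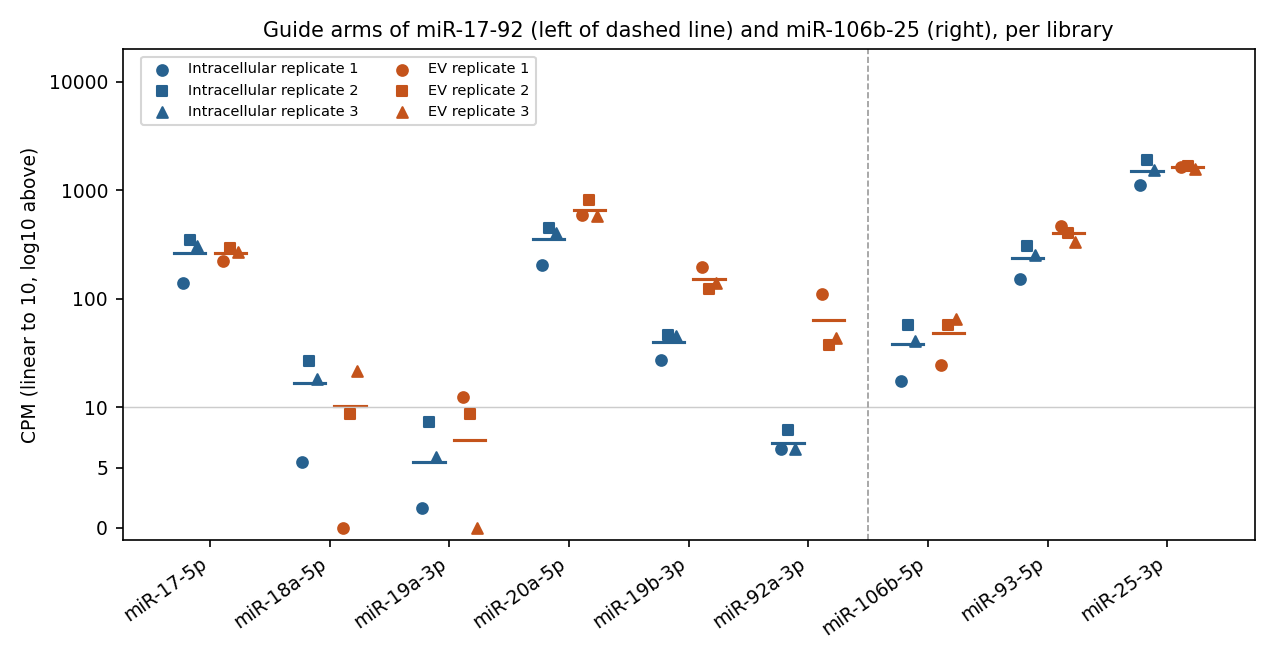
CPM of the 9 guide arms in each library, on an axis that is linear up to 10 CPM and log10 above it. Blue marks are Intracellular and orange marks EV libraries, shapes are replicates and bars are group means. miR-19b-3p and miR-92a-3p in EV lie above all Intracellular values, and miR-25-3p is the highest in all 6 libraries, at 1123 CPM or more.

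Between EV and Intracellular libraries, miR-19b-3p and miR-92a-3p rose under both scalings, by 1.31 and 2.53 on the log2 scale with TMM. miR-92a-3p passed the filter on low counts only through EV, the group where it is high, and with TMM its call was lost without EV replicate 1 (1.93, edgeR adjusted p = 0.0535). Of these 2 scalings, miR-25-3p fell with TMM alone. The other 5 tested members passed the test in neither direction with TMM, and miR-19a-3p was too sparse to be tested. By edgeR's quasi-likelihood test with TMM, at an adjusted p of 0.05 over all 328 miRNAs tested, 2 of the 8 tested members were higher in EV, where 25.6% of all tested miRNAs were, and 1 was lower, where 17.1% were. In either direction this is 3 of 8, against 42.7%. With total counts 3 were higher against 32.6% of all, and 0 were lower against 0.915% (0 at an unadjusted p under 0.05 too, and 1 by DESeq2 with its own size factors). CPM did not overlap and were higher in EV for 4 of the 8 (miR-20a-5p, miR-19b-3p, miR-92a-3p and miR-93-5p), against 41.8% of all tested miRNAs, and for 0 they were lower, against 3.66% (45.4% in either direction). The members' shares were close to those of all tested miRNAs. The median log2 fold change of the 8 was -0.017 with TMM and 0.57 with total counts, beside -0.065 and 0.55 for all 328.

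**Figure D2:**
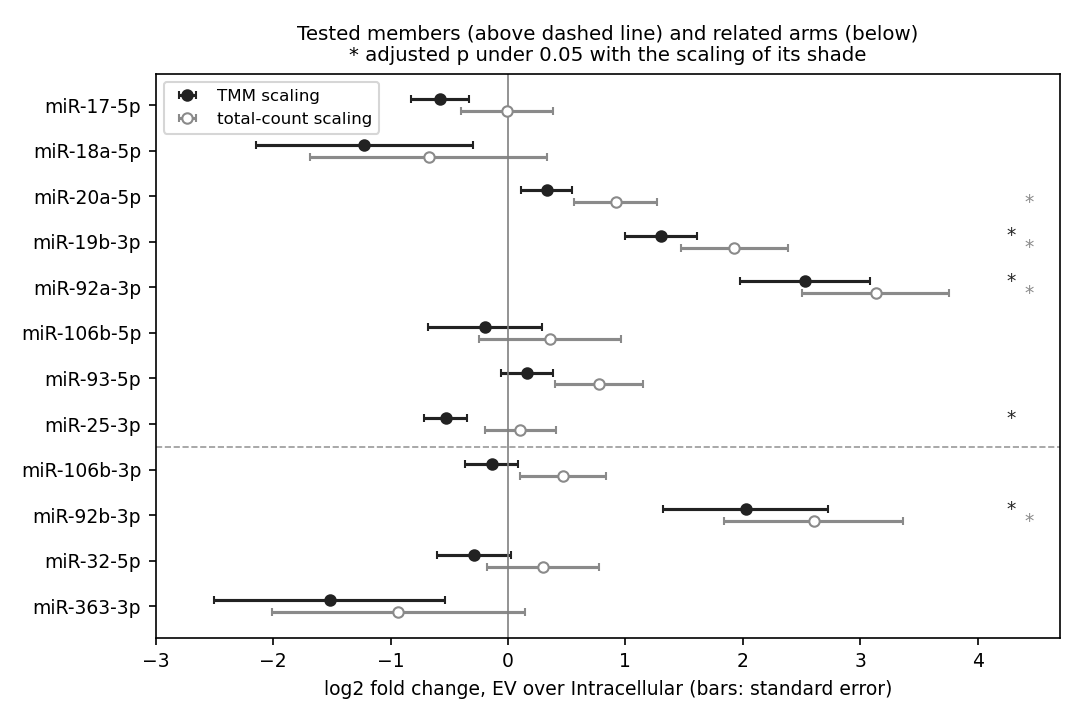
Log2 fold change of EV over Intracellular with its standard error for the 8 tested members (upper part) and 4 related arms (lower part), with TMM (filled) and total-count scaling (open); asterisks mark adjusted p under 0.05. miR-19b-3p, miR-92a-3p and miR-92b-3p carry both asterisks, miR-25-3p that of TMM alone and miR-20a-5p that of total counts alone.

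In the miR-19 family, miR-19b-3p had 16, 13 and 13 counts in EV replicates 1 to 3, or 197, 123 and 141 CPM. In Intracellular replicates 1 to 3 it had 27.2, 46.5 and 45.8 CPM. All EV libraries lay above all Intracellular ones. The log2 fold change was 1.31 (SE 0.31, edgeR adjusted p = 0.00237) with TMM and 1.93 (SE 0.46, edgeR adjusted p = 0.00110) with total counts. It was called in each alternative in which it was tested, with log2 fold changes of 1.06 to 2.07 and adjusted p of 0.000172 to 0.0360. Its sister miR-19a-3p had 1, 1 and 0 counts in EV and 3, 29 and 52 in Intracellular libraries. At its mean Intracellular level 1.51 EV counts would be expected against the 2 seen (95% Poisson interval 0.242 to 7.22), so a difference of the size seen for miR-19b-3p was not detectable at this depth. Family sums were 209, 133 and 141 CPM in EV, against 28.8, 55.2 and 51.7 CPM in Intracellular libraries, with miR-19b-3p taking 95.5% of the pooled EV counts (42 of 44, exact binomial interval 84.5% to 99.4%) and 87.9% of the Intracellular ones (610 of 694, 85.2% to 90.2%). These intervals, like all others given here, cover counting error alone.

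The miR-92 family split between the clusters. miR-92a-3p, the last member of miR-17-92, had 9, 4 and 4 counts in EV replicates 1 to 3, or 111, 37.9 and 43.3 CPM, and 6.53, 8.15 and 6.55 CPM in Intracellular replicates 1 to 3. The groups did not overlap, and EV replicate 1 was far above the other EV libraries. The log2 fold change was 2.53 (SE 0.55, edgeR adjusted p = 0.00127) with TMM and 3.13 (SE 0.62, edgeR adjusted p = 0.000138) with total counts. It rests on 17 EV counts, where 1.97 would be expected at the mean Intracellular level, and no Intracellular library reached the 10.3 CPM that the filter asked for. With TMM it missed the threshold without EV replicate 1, also with the tested rows kept (1.98, edgeR adjusted p = 0.0515). With total counts the call was kept without that library (2.51, edgeR adjusted p = 0.0185), and the range of adjusted p over its alternatives was 2.40e-05 to 0.0535.

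miR-25-3p, the last member of miR-106b-25 with the same seed, had 134, 176 and 145 counts in EV replicates 1 to 3, or 1650, 1667 and 1570 CPM. The Intracellular libraries held 1123, 1907 and 1528 CPM, on both sides of the EV values. With TMM, which raises Intracellular replicate 1, it fell by 0.53 (SE 0.18, edgeR adjusted p = 0.0265). With total counts the log2 fold change was 0.10 (SE 0.30, edgeR adjusted p = 0.838), so the fall does not hold as a share of counts. With all libraries it was called lower in 8 of 12 other settings. Among these were RLE scaling (-0.52, edgeR adjusted p = 0.0315), upper-quartile scaling (-0.78, edgeR adjusted p = 0.00152) and DESeq2 (-0.52, adjusted p = 0.00979). It was not called with total counts, with limma on log2 TPM or with known miRNAs alone (-0.41, edgeR adjusted p = 0.0828). With the filter applied again it missed the threshold without EV replicate 1 (edgeR adjusted p = 0.0724), EV replicate 2 (0.0643), Intracellular replicate 2 (0.252) or Intracellular replicate 3 (0.0785), in a range of 0.00152 to 0.946 over all alternatives. A share within a library does not depend on scaling: miR-92a-3p made up 6.29%, 2.22% and 2.68% of the pair in EV replicates 1 to 3 and 0.577%, 0.426% and 0.427% in Intracellular replicates 1 to 3. Every EV library lay above every Intracellular one, with pooled shares of 3.60% (17 of 472, exact binomial interval 2.11% to 5.70%) and 0.441% (97 of 22018, 0.357% to 0.537%).

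In the miR-17 family, whose members lower Cdkn1a and E2f1, 0 of 4 members passed edgeR's test with TMM (1, miR-17-5p, at an unadjusted p under 0.05, and 0 by DESeq2), where 42.7% of all tested miRNAs passed in either direction. miR-20a-5p had 591, 815 and 585 CPM in EV replicates 1 to 3 and 206, 446 and 406 CPM in Intracellular replicates 1 to 3, without overlap. Its log2 fold change was 0.33 (SE 0.22, edgeR adjusted p = 0.240) with TMM and 0.92 (SE 0.36, edgeR adjusted p = 0.0456) with total counts. The latter call was kept in 2 of 6 fits that left out 1 library, those without Intracellular replicate 1 or 2 (adjusted p of 0.0106 to 0.230 over the 6). miR-93-5p had 468, 407 and 336 CPM in EV, against 151, 305 and 251 CPM in Intracellular libraries, also without overlap. Its log2 fold change was 0.16 (SE 0.22, edgeR adjusted p = 0.593) with TMM and 0.77 (SE 0.37, edgeR adjusted p = 0.113) with total counts. Both thus had higher CPM in every EV library than in any Intracellular one, and on TMM-scaled CPM the groups overlapped.

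miR-17-5p, the first member of its cluster, had 222, 294 and 271 CPM in EV replicates 1 to 3 and 140, 349 and 305 CPM in Intracellular replicates 1 to 3. The EV values lay between those of Intracellular replicates 1 and 3. Divided by the TMM factors they did not overlap, at 164 to 234 in EV and 251 to 362 in Intracellular libraries. Its log2 fold change was -0.58 (SE 0.25, edgeR adjusted p = 0.0696) with TMM and -0.0087 (SE 0.40, edgeR adjusted p = 0.983) with total counts. It was called lower with TMM without Intracellular replicate 1, at -0.63 (edgeR adjusted p = 0.0210), with upper-quartile scaling (-0.84, 0.00489), with TMM factors taken without the 10 most abundant miRNAs (-0.62, 0.0474) and with no filter (-0.72, 0.0333). miR-106b-5p, the least abundant of the family, had 2, 6 and 6 counts in EV, or 24.6, 56.8 and 65.0 CPM, and 17.4, 57.7 and 40.4 CPM in Intracellular libraries. The groups overlapped, and its log2 fold change was -0.20 (SE 0.48, edgeR adjusted p = 0.768) with TMM and of the opposite sign with total counts (0.36, SE 0.61). At 14 EV counts (95% Poisson interval 7.65 to 23.5) neither direction could be told.

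miR-18a-5p, the single miR-18 member, which lowers Ctgf, had 0, 1 and 2 counts in EV and 10, 88 and 163 in Intracellular libraries. At its mean Intracellular level of 16.8 CPM, 4.69 EV counts would be expected against the 3 seen (95% Poisson interval 0.619 to 8.77). Its log2 fold change was -1.22 (SE 0.92, edgeR adjusted p = 0.301) with TMM and -0.67 (SE 1.01, edgeR adjusted p = 0.703) with total counts.

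Summed by cluster, miR-17-92 stood at 1133, 1288 and 1061 CPM in EV replicates 1 to 3 and at 386, 885 and 788 CPM in Intracellular replicates 1 to 3. The groups did not overlap, and the mean in EV was 1.69 times that in Intracellular libraries, or 1.39 times without Intracellular replicate 1. On the log2 scale the ratio of 1.69 is 0.76, beside a median log2 fold change of 0.55 over all tested miRNAs with total counts. CPM of 41.8% of all tested miRNAs also lay higher in EV without overlap. miR-106b-25 stood at 2143, 2131 and 1971 CPM in EV, against at 1292, 2269 and 1820 CPM in Intracellular libraries. Here the groups overlapped, at a ratio of means of 1.16, or 1.02 without Intracellular replicate 1. Divided by the TMM factors, the ratio was 1.13 for miR-17-92, with overlap, and 0.749 for miR-106b-25, without overlap. By seed family the plain ratios were 1.55 for miR-17, 0.618 for miR-18, 3.56 for miR-19 and 1.11 for miR-92, where miR-25-3p makes up nearly all of the sum. With TMM factors they were 1.03, 0.456, 2.31 and 0.713. miR-106b-25 held more guide-arm counts than miR-17-92 in every library, although it has fewer members. These sums, and the shares below, leave out the passenger arms. Among those is miR-106b-3p, which was more abundant than miR-106b-5p and is described below.

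The composition of each cluster was described by shares within a library, with no test. miR-17-5p made up 19.6%, 22.8% and 25.5% of the cluster in EV replicates 1 to 3, against 36.2%, 39.4% and 38.7% in Intracellular replicates 1 to 3. The share of miR-19b-3p was 17.4%, 9.56% and 13.3% in EV against 7.04%, 5.25% and 5.82%, and that of miR-92a-3p 9.78%, 2.94% and 4.08% against 1.69%, 0.921% and 0.831%. Groups did not overlap for any of these 3 members. Such gaps were common in these libraries: of all within-library ratios between 2 known miRNAs, 53.3% did not overlap. miR-20a-5p held 52.2% to 63.2% in EV and 50.4% to 53.2% in Intracellular libraries, with overlap. Of the cluster without miR-19b-3p and miR-92a-3p, it held 71.6%, 72.3% and 66.7% in EV replicates 1 to 3 and 58.3%, 53.7% and 55.2% in Intracellular replicates 1 to 3, without overlap. The members left out were those called higher with TMM in these same data. Nearly all of the rest was miR-17-5p and miR-20a-5p, so this share largely restates their ratio, given below. In miR-106b-25, miR-93-5p held 21.8%, 19.1% and 17.03% in EV replicates 1 to 3, against 11.7%, 13.4% and 13.8% in Intracellular replicates 1 to 3. miR-25-3p held 77.0%, 78.2% and 79.7% in EV, against 87.0%, 84.0% and 84.0%. Neither overlapped, and miR-106b-5p lay between 1.15% and 3.30% in all 6 libraries.

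**Figure D3:**
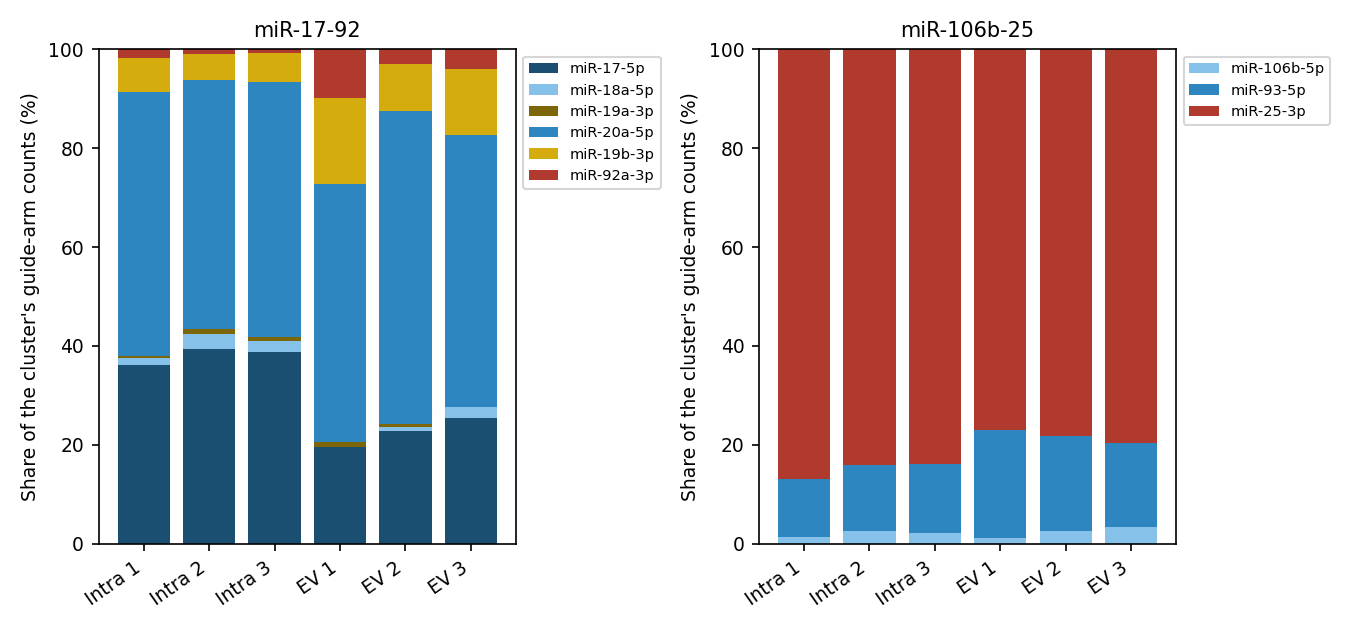
Share of each guide arm in the guide-arm counts of its cluster, for the 3 Intracellular and 3 EV libraries. Bars sum to 100%. The dark blue share of miR-17-5p is smaller in EV (19.6% to 25.5%) than in Intracellular libraries (36.2% to 39.4%), and the yellow and red shares of miR-19b-3p and miR-92a-3p are larger.

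Ratios between members of a cluster were taken for the 9 pairs in which both had at least 10 counts in each group, a set chosen after values were seen. Of these, 7 did not overlap between the groups, against the same 53.3% of all pairs of the 228 known miRNAs with the same minimum and a count in every library. The exact 2-sided permutation p of each of the 7 was 0.1, the smallest that 3 against 3 samples allow, and 0.129 adjusted over the 9 pairs. Any pair without overlap gives this p, so it adds nothing to the count of such pairs. The pairs also share members and are not independent. Those with miR-92a-3p rest on a member that passed the filter through EV alone. miR-20a-5p to miR-17-5p, which are close in sequence, stood at 2.67, 2.77 and 2.16 in EV replicates 1 to 3. In Intracellular replicates 1 to 3 the ratio was 1.47, 1.28 and 1.33. Means were 2.53 ± 0.328 and 1.36 ± 0.0998 (SD, n = 3), a gap larger than the spread in either group. miR-25-3p to miR-93-5p stood at 3.53, 4.09 and 4.68 in EV and at 7.43, 6.25 and 6.08 in Intracellular libraries. Each of the 4 pairs of miR-17-5p or miR-20a-5p with miR-19b-3p or miR-92a-3p had a lower ratio in all EV libraries than in any Intracellular one. The 2 pairs with overlap were those of miR-106b-5p, with miR-93-5p (exact permutation p = 0.7) and with miR-25-3p (exact permutation p = 0.6).

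**Figure D4:**
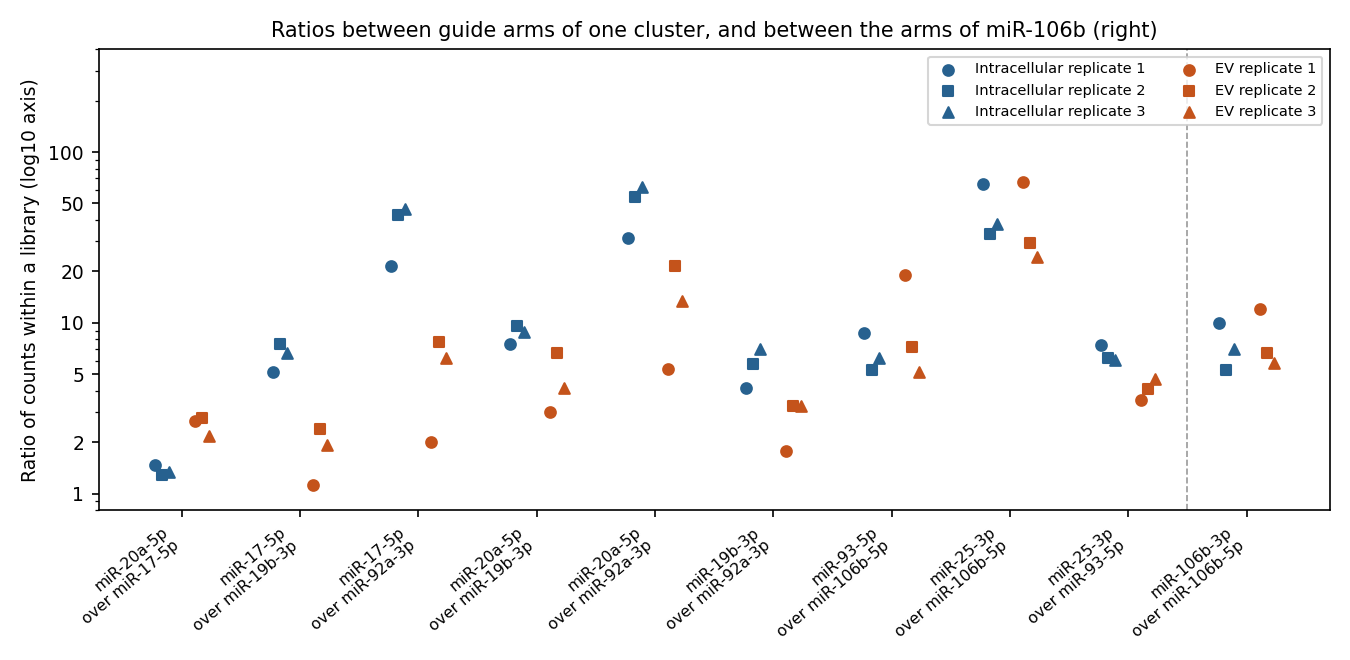
Ratio of counts within each library for 9 pairs of guide arms of one cluster and, right of the dashed line, for the arms of miR-106b, on a log10 axis. The ratio of miR-20a-5p to miR-17-5p is higher in EV (2.16 to 2.77) than in Intracellular libraries (1.28 to 1.47), and the arm ratio of miR-106b overlaps.

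The passenger arms were listed as the other strands of the same hairpins. Of 12 arms, 9 had a row and 1, miR-106b-3p, was tested, with no call. This strand was the main product of its hairpin in every library. Its sequence is shown, with the seed in capitals, since that seed belongs to none of the families above.
miR-106b-3p: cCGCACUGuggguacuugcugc
It had 24, 40 and 35 counts in EV replicates 1 to 3, against 2, 6 and 6 of miR-106b-5p. In Intracellular replicates 1 to 3 it exceeded miR-106b-5p by 9.91, 5.32 and 7.04 times, and in EV by 12.0, 6.67 and 5.83 times. The ranges overlapped, and miR-106b-3p made up 87.6% of both arms in pooled EV counts (99 of 113, exact binomial interval 80.1% to 93.1%) and 86.9% in Intracellular ones (3855 of 4436, 85.9% to 87.9%). Its log2 fold change was -0.14 (SE 0.23, edgeR adjusted p = 0.658) with TMM and 0.47 (SE 0.37, edgeR adjusted p = 0.393) with total counts.

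The other passenger arms were rare. miR-25-5p had 2 EV counts and 14 Intracellular ones, and the remaining 7 had 0 EV counts, which allows up to 10.7 CPM (3 counts) over the pooled EV libraries. Of these, miR-17-1-3p (2.86 CPM), miR-17-2-3p (2.64 CPM, an arm of Mir106a in RefSeq), miR-93-3p (2.76 CPM) and miR-92a-1-5p (2.91 CPM) had more than 10 Intracellular counts. All lay below what the EV depth could show. Relative to its guide arm, miR-92a-1-5p was the exception inside the cells. It made up 31.2% of the counts of both arms there (44 of 141, exact binomial interval 23.7% to 39.5%), against 0 of 17 in EV (upper bound 19.5%), where 5.30 would be expected at the Intracellular share. miR-92a-3p also arises from a second hairpin, so this is not the arm ratio of 1 precursor, and the pooled interval leaves out the spread between libraries. The 5.30 also scales with the EV counts of miR-92a-3p, which passed the filter through EV alone. At the mean Intracellular level of miR-92a-1-5p itself, 0.811 EV counts would be expected, so the 0 seen shows no change in its level. For the other 6 guide arms with a passenger row from the same hairpin, leaving miR-106b aside, the passenger was at most 2.97% of both arms in Intracellular libraries (miR-18a).

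Known miRNAs from other loci that carry a seed of the members were searched in the count table, and 4 were found: miR-20b-5p with the miR-17 seed and miR-32-5p, miR-92b-3p and miR-363-3p with the miR-92 seed. Of these 3 were tested with TMM, 1 rose, against 25.6% of all tested miRNAs, and 0 fell, against 17.1% (0 at an unadjusted p under 0.05 too). The riser, miR-92b-3p, is shown with its seed in capitals, since it differs from miR-92a-3p by U10C and G21C alone over 21 bases.
miR-92b-3p: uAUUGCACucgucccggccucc
It had 3, 3 and 1 counts in EV, or 36.9, 28.4 and 10.8 CPM, and 3.26, 3.92 and 4.74 CPM in Intracellular replicates 1 to 3. The groups did not overlap, and its log2 fold change was 2.03 (SE 0.70, edgeR adjusted p = 0.0272) with TMM and 2.60 (SE 0.76, edgeR adjusted p = 0.00720) with total counts, from 7 EV counts. Like miR-92a-3p, it passed the filter through its EV libraries alone. miR-32-5p, with the same seed, had 123, 104 and 75.8 CPM in EV, against 44.6, 98.7 and 101 CPM in Intracellular libraries, with overlap (log2 fold change -0.29, SE 0.31, edgeR adjusted p = 0.479 with TMM).

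The arms listed for the paralogous miR-106a-363 cluster were rare in EV libraries. The level of the whole cluster could not be told, as members that also arise from its hairpins could not be assigned by locus. Of its 6 listed arms 3 had a row, and none had more than 3 EV counts in all. miR-363-3p, the one tested, was at 13.6 ± 4.48 CPM in Intracellular libraries, above the member miR-92a-3p there (7.07 CPM). In EV libraries miR-363-3p had 2 counts, both in EV replicate 3 (log2 fold change -1.52, SE 0.98, edgeR adjusted p = 0.233). miR-20b-5p had 3 EV counts and 3.69 ± 1.04 CPM in Intracellular libraries (SD, n = 3).

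The known miRNAs closest in pattern to each cluster sum were found by the root mean square difference of log2(CPM + 1) over the 6 libraries, each profile centred on its mean, among 171 miRNAs with at least 50 CPM in both groups. For miR-17-92 they were miR-872-5p (0.0923), miR-3557-5p (0.1004) and miR-192-5p (0.125), against a median of 0.449 over the 171. For miR-106b-25 they were miR-145-5p (0.105), miR-221-3p (0.108) and miR-370-3p (0.125), against a median of 0.363. miR-872-5p stood at 682 ± 38.5 CPM in EV, against 438 ± 172 CPM in Intracellular libraries. miR-145-5p, a miRNA of mesenchymal cells, stood at 3024 ± 70.5 and 2863 ± 908 CPM (SD, n = 3).

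Markers of the labelled and of other cell types were summed, since these clusters are also active in blood cells. All 7 fibroblast and mesenchymal miRNAs were present and together took 435952 to 460553 CPM in EV, against 474371 to 495643 CPM in Intracellular libraries, with 2 called higher and 4 lower. The 3 erythroid miRNAs took 152 to 222 CPM in EV, against 2.26 to 5.98 CPM, and both tested ones were called higher, while miR-144-3p was at 0 in EV. The 3 liver and serum miRNAs took 11612 to 14069 CPM in EV, against 397 to 476 CPM, with 1 of 3, miR-122-5p, called higher. Of the same list miR-192-5p, named above as close to miR-17-92 in pattern, stood at 225 ± 45.1 CPM in EV, against 135 ± 54.2 CPM. The 3 muscle miRNAs took 49.3 to 152 CPM in EV, against 9.06 to 12.6 CPM, and the 1 tested was called higher. The 5 leukocyte miRNAs took 217 to 265 CPM in EV, against 63.6 to 170 CPM, with miR-142-5p and miR-223-3p at 0 in EV. Of the 2 leukocyte miRNAs tested, 0 were called higher and 0 lower. These 4 sums lay higher in every EV library than in any Intracellular one. On plain CPM so did 4 of the 8 tested members (miR-20a-5p, miR-19b-3p, miR-92a-3p and miR-93-5p) and 41.8% of all tested miRNAs. The part of the other cell types in the levels of the members was not tested. The 3 Schwann cell miRNAs took 21.7 to 85.2 CPM in EV, against 8.70 to 22.2 CPM, with overlap, miR-219a-5p at 0 in EV and 1 of 2 tested called higher. The groups overlapped for the 2 endothelial miRNAs (260 to 436 and 141 to 390 CPM) and for the 4 of 5 neuronal miRNAs with a row (3978 to 4928 and 2233 to 5131 CPM), of which 2 were called lower. All 5 epithelial miRNAs were at 0 in EV and summed to at most 2.14 CPM in Intracellular libraries, a level below what the EV depth could show. For any marker, 0 EV counts allow up to 10.7 CPM (3 counts) over the pooled EV libraries.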

How the data were processed

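Small RNA libraries of 3 EV and 3 Intracellular samples were compared. The submitters' processing notes name cutadapt and the build Rnor_6.0, per the labels; aligner, miRNA database and counter: not given in the sources used here. The authors deposited whole-number counts per mature miRNA and TPM values, which were checked to equal the counts divided by the library total, times 1000000. No coordinates are given, as the reference tables are of another build (GRCr8).

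Counts were tested with edgeR 4.0.16 (R 4.3.3; quasi-likelihood, robust, 2-sided, no replicate block) after filterByExpr (minimum count 10, minimum total 15; 10.3 CPM at these depths) with TMM, and p-values were adjusted over all 328 miRNAs tested. In EV replicates 1 and 3 a single count stood for 12.3 and 10.8 CPM, so a row could pass the filter on few EV counts. Such rows are part of the shares given for all tested miRNAs. Standard errors come from the F statistic. Library totals ranged from 81211 to 105578 counts in EV and from 1839047 to 8859302 in Intracellular libraries. Sums, shares and arm counts are descriptions. The fit was also run on simulated data, and the outcome is not given here.

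All 9 members, the passenger arms, the miR-106a-363 arms and miRNAs with a shared seed were named where called or where they had at least 10 counts in a group. The members and lists were chosen with earlier results of these data known. The ratios between members were added after values were seen, as were total-count fits without 1 library. Alternatives were other scalings and filters, DESeq2 1.42.0, limma 3.58.1 (voom, log2(TPM + 1) and log2(TPM + 0.1)), known miRNAs alone, a replicate block and each library left out.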

Additional observations from a re-analysis of the deposited data

How the results depend on the processing

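The rises of miR-19b-3p and miR-92a-3p kept their direction in every alternative run, and the call of miR-92a-3p was lost only with TMM without EV replicate 1. With any 1 Intracellular library left out and the filter applied again, miR-92a-3p was not tested. With TMM and 1 library left out, members called higher numbered 1 to 2 and lower 0 to 2, of 5 to 9 members tested. All miRNAs gave 50 (of 195 tested) to 91 (of 328) higher calls and 18 to 58 lower calls (both of 328). With all libraries these were 84 and 56 of 328. Where the filter was applied again, 195 to 380 miRNAs were tested, so the counts do not share 1 total. With total counts and 1 library left out, 2 to 3 members were higher and 0 lower, and 83 to 118 of all miRNAs were higher and 1 to 21 lower, against 107 and 3. Members called lower were 0 with total counts, limma on log2(TPM + 1) and log2(TPM + 0.1), and known miRNAs alone, and 2 with upper-quartile scaling, TMM without the 10 most abundant miRNAs, and no filter. All miRNAs called lower were 3, 2, 3 (each of 328 tested) and 37 (of 290) in the first 4 of these and 92 (of 328) with upper-quartile scaling. Without a filter 197 of 1071 were higher. Among calls, 60.0% were higher with TMM and 97.3% with total counts. The cause of these differences was not tested.

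Log2 fold changes turned sign with total counts for miR-106b-5p (0.36) and miR-25-3p (0.10), with log2(TPM + 1) for miR-17-5p (0.080), miR-106b-5p (0.38) and miR-25-3p (0.13), with log2(TPM + 0.1) for the same 3 (0.081, 0.39 and 0.13), and with upper-quartile scaling for miR-93-5p (-0.086). With TMM and 1 library left out they ranged from -0.55 to 0.13 for miR-106b-5p, -0.71 to -0.34 for miR-17-5p and -0.62 to -0.36 for miR-25-3p. With total counts and 1 library left out the ranges were 0.042 to 0.76, -0.31 to 0.24 and -0.073 to 0.30.

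Divided by TMM factors, the log2 ratio of the summed level was -0.23 for the 9 members, 0.17 for miR-17-92, -0.42 for miR-106b-25, 0.040 for the miR-17 family, 1.21 for miR-19 and -0.49 for miR-92, against 0.39, 0.76, 0.21, 0.63, 1.83 and 0.15 with plain CPM. Without miR-25-3p it was 0.75 for the members, 0.72 for miR-106b-25 and 3.18 for miR-92, and without miR-19b-3p 0.42 for miR-19. For miR-92 it ranged from -0.027 to 0.35 with 1 library left out.

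Same-numbered libraries did not deviate together (r of 0.024, 0.021 and 0.016 across tested miRNAs), and no EV library correlated best with the Intracellular library of its own number (the highest of all 9 correlations was 0.058). With the replicate block 2 members were higher and 1 lower, with 87 higher and 46 lower among all. EV depth limits miR-18a-5p, miR-19a-3p, miR-106b-5p and most passenger arms.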
